A study of Mus musculus with 24 samples.

Results

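The genes described here are 10 genes known mainly from oligodendrocytes, measured in the efferent (EN) and afferent (AN) nerve fibres of the mouse lumbar spinal roots. They are Olig1, Olig2, Mobp, Mog, Opalin, Cldn11, Omg, Ermn, Hapln2 and Aspa. Every gene probe of the array whose gene symbol is 1 of these names was taken, which gave 15 probes among the 56605 gene probes of the array. A gene was then described through the probe with the highest mean of the authors' log2 values, and its other probes served as a check. No measured difference between groups entered this choice of probe, but the 10 genes themselves were chosen with earlier results of these data known.

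Oligodendrocytes are the glia that wrap axons of the brain and spinal cord in myelin, whereas Schwann cells make the myelin of peripheral nerves. A spinal root holds both territories, because oligodendrocyte myelin gives way to Schwann cell myelin at a transition zone close to the surface of the cord, where astrocyte processes also end. Olig1 and Olig2 are transcription factors of the lineage, Mobp, Mog, Opalin, Cldn11 and Ermn are proteins of its myelin sheath, and Omg, Hapln2 and Aspa are linked to the axon surface, the node of Ranvier and acetate metabolism.

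RNA came from C57BL/6 mice, and the labels name neither a treatment nor a transgene. The efferent nerve fibres (ventral root) and the afferent nerve fibres (dorsal root) of segments L4 to L6 were sampled at birth (P0) and at 1, 3 and 5 weeks (1 W, 3 W and 5 W). Each of the 8 groups held 3 arrays, 24 in all. The design names 9 animals of each age, of both sexes equally, and fibres collected into 1 tube a group. The study's methods also name 3 independent experiments for each group. The animals behind each array are not given in the sources used here, so p-values measure the spread between these arrays. In such bulk RNA, fewer cells of a type and less RNA per cell cannot be told apart.

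Gene values are log2 signals after quantile normalization. Summed signals of a list add the unlogged signals of its probes, so the brightest probes weigh most in them. Apart from these sums and remarks on brightness or rank, signals of different probes are not compared. A signal is called above background when the scanner software marked the spot so, and a fold against a group with no such array is given only as a lower bound. Differences between nerve fibres are AN minus EN, and differences between ages are the later age minus the earlier. A gene was called higher or lower at an adjusted p (Benjamini-Hochberg, limma, over the 36398 tested probes) below 0.05 with a fold above 2. All 10 genes were tested. All 9 marker genes of myelinating Schwann cells were above background on every array of all 8 groups. Of the 10 oligodendrocyte genes, 6 were above background on all 3 arrays of each fibre at P0, and all 10 were in AN at 3 W. Arrays of both fibres with the same replicate number always shared a slide, whereas all 6 arrays at 3 W were on 1 slide (slide 4), with no P0 or 1 W array beside them.

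For Ermn, whose probe holds a repeat, and for Mog and Mobp, each with a pair of tested probes, 30 bases of the probes are printed, 5′ to 3′ as on the array, with mm9 positions of the whole probe. The capitals mark a run of GAA units, which fills 21 bases in the Ermn probe (7 units) and 12 bases in the probe of Trpm1 (4 units), the gene closest to Ermn in its pattern over the arrays. Ermn was read at chr2:57900470-57900529 and Trpm1, an ion channel of another lineage, at chr7:71371607-71371666. Mog has a probe within 1 stretch of the genome, at chr17:37148277-37148336, and another whose 60 bases span 312 bases, at chr17:37149021-37149332, and so cross a splice junction. Both are placed in the same transcript, at positions 1055 and 856. The label unspliced below means only that the probe crosses no junction. For Mobp the probes lie at chr9:120085150-120085209 and chr9:120077006-120077065.
Ermn, bases 25 to 54, minus strand: acgagGAAGAAGAAGAAGAAGAAGAAgttt
Trpm1, bases 22 to 51, plus strand: gaagaaaaaGAAGAAGAAGAAagaggaaga
Mog, unspliced stretch, bases 1 to 30, minus strand: gataccgagtagaacttgatttccctccct
Mog, across the junction, bases 1 to 30, minus strand: cccctggttgccttgatcatctgctacaac
Mobp, brighter probe, bases 1 to 30, plus strand: gatttatcctgtctccagttatctggcact
Mobp, dimmer probe, bases 1 to 30, plus strand: acccttcaccttcctcaactccaagcgtga

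**Figure D1:**
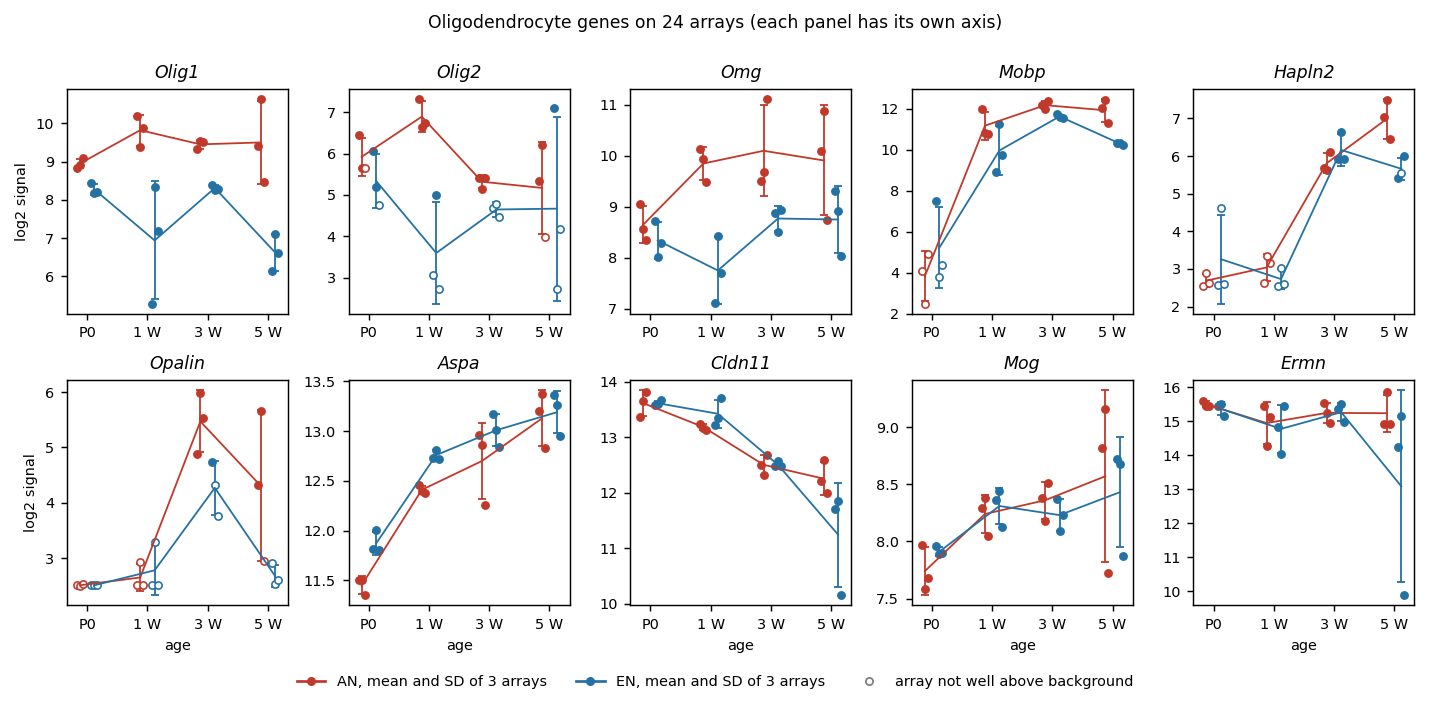
Log2 signal (y axis) of each of the 10 genes on every array, by age (x axis), with AN and EN in separate colours and 3 arrays a group. Lines join the means, bars are SD, and open symbols are arrays on which the probe was not above background. Mobp rises from between 2.49 and 7.48 at P0 to above 10 at 5 W, Cldn11 falls, and Olig1 and Omg lie higher in AN than in EN.

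The first question was how far the afferent and efferent nerve fibres differed in these genes at each age. No gene was called at P0, 3 were called higher in AN at 1 W (Olig1, Olig2 and Omg), none at 3 W, and 3 at 5 W (Olig1, Cldn11 and Opalin). None was called lower in AN. Among all tested probes, 0.327%, 2.80%, 3.13% and 3.34% were called in these 4 comparisons. By direction, 26, 877, 815 and 914 of those probes were higher in AN and 93, 141, 324 and 303 were lower. From 1 W on, most called probes of the whole array were thus higher in AN too. From the youngest age to the oldest, the 10 genes had median differences of 0.00, 0.25, 0.34 and 1.24, beside 0.006, -0.069, -0.031 and -0.031 over all tested probes. Without adjustment (p below 0.05, fold above 2), limma gave 0, 3, 3 and 7 genes, again in order of age. Over all 36398 tested probes the same unadjusted rule gave 403, 1782, 2058 and 2039. With same-numbered AN and EN arrays taken as a pair (replicate block of 12 pairs), 0, 3, 1 and 6 genes were called. The share of all tested probes called in that fit is not given here, so these counts have no baseline.

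Olig1, a transcription factor of oligodendrocyte precursors and mature cells (probe at chr16:91271799-91271858, plus strand), was higher in AN than in EN in all 12 pairs. At P0 the AN arrays read 8.83, 8.92 and 9.09 and the EN arrays 8.44, 8.18 and 8.20. At 1 W it read 10.20, 9.38 and 9.88 in AN and 5.29, 8.33 and 7.19 in EN. The fibres did not overlap at either age, and the EN arrays at 1 W were spread widely (SD 1.54, n = 3). The difference at 1 W was 2.88 ± 0.54 (SE), or 7.36-fold, with an adjusted p of 0.00573 by limma.

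At 3 W Olig1 read 9.32, 9.53 and 9.51 in AN and 8.39, 8.25 and 8.28 in EN, a difference of 1.14 with an adjusted p of 0.255 by limma. At 5 W it read 9.40, 10.64 and 8.47 in AN and 6.15, 7.11 and 6.61 in EN. These groups again did not overlap, and the difference was 2.88 ± 0.54, or 7.35-fold, with an adjusted p of 0.00289. When the 6 arrays of an age were fitted alone, Olig1 was not called at 1 W (adjusted p = 0.1 by limma), where Olig2 and Omg were, nor at 5 W (adjusted p = 0.135), where no gene was. Within EN, Olig1 was called lower at 5 W than at P0 (difference -1.65, adjusted p = 0.0156 by limma). Without EN replicate 1 at 5 W this difference was -1.41 with an adjusted p of 0.0633, and with the slide as a fixed block it was -1.45 with an adjusted p of 0.0552. AN at 5 W against P0 gave 0.56, which was not called (adjusted p = 0.414).

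Olig2, the partner factor that specifies the lineage (probe at chr16:91228470-91228529, plus strand), was dimmer and above background on 14 of 24 arrays. At 1 W it read 7.32, 6.63 and 6.74 in AN and 3.08, 5.00 and 2.72 in EN, where 1 of 3 arrays was above background. These groups did not overlap, with a difference of 3.29 ± 0.79 and an adjusted p of 0.0214 by limma. Leaving out EN replicate 1 took the adjusted p to 0.112, and leaving out EN replicate 3 or any AN array at 1 W took it to between 0.0534 and 0.0929. At 5 W the EN arrays read 7.09, 2.73 and 4.19 and enclosed the AN values of 5.34, 6.20 and 3.99. That difference was 0.51 ± 0.79, with an adjusted p of 0.775.

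Omg, a glycoprotein of the oligodendrocyte and axon surface (chr11:79315116-79315175, minus strand), was the other gene higher in AN in all 12 pairs. It read 10.14, 9.93 and 9.49 in AN at 1 W and 7.12, 8.42 and 7.71 in EN. The groups did not overlap, and the difference was 2.10 ± 0.49, or 4.30-fold (adjusted p = 0.0178 by limma). Leaving out EN replicate 1 at 1 W took the adjusted p to 0.119, and leaving out AN replicate 1 or AN replicate 2 took it to 0.0842 or 0.0609. At 3 W the AN arrays read 9.5, 9.68 and 11.12 and the EN arrays 8.87, 8.5 and 8.94. The highest of these, AN replicate 3, also stood apart in sensory neuron genes, with Calca at 16.50 beside 11.32 and 10.75 and Avil at 15.20 beside 10.42 and 9.78, and had the lowest array weight of the 6 at that age (0.215). The part of those cells in the Omg signal was not tested. The difference there was 1.33, with an adjusted p of 0.123, and of 0.0253 with the 12 pairs as a block. At 5 W it was 1.16, with 0.179 and 0.0397 for the same fits.

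Opalin, a transmembrane sialylglycoprotein of central myelin (chr19:41138452-41141030, minus strand), was at the edge of detection, above background on 6 of 24 arrays. Its 5 W arrays read 4.32, 5.66 and 2.94 in AN, of which 2 were above background, and 2.91, 2.53 and 2.61 in EN, of which none was. The fitted difference of 1.62 had an adjusted p of 0.0339 by limma, and no lower bound on the fold can be given. It missed the threshold without any single array at 5 W other than AN replicate 3, at adjusted p values up to 0.187. The other Opalin probe was above background on 0 of 24 arrays, read between 2.54 and 2.63, and was not tested.

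Cldn11, the claudin of tight junctions in central myelin (chr3:31062922-31062981, plus strand), read 12.20, 12.58 and 11.99 in AN at 5 W. The EN arrays read 11.70, 11.85 and 10.15, without overlap. The difference was 1.02 ± 0.30, or 2.03-fold, with an adjusted p of 0.0434. Without EN replicate 3 at 5 W it was 0.48 with an adjusted p of 0.142, and without AN replicate 1 or AN replicate 2 the adjusted p was 0.0793 or 0.183. In all, 8 of 20 alternatives took this difference under a threshold. The remaining genes at 5 W had differences of 2.15 for Ermn, 1.62 for Mobp, 1.33 for Hapln2, 0.14 for Mog and -0.06 for Aspa, none of them called, at adjusted p values of 0.136, 0.225, 0.0589, 0.826 and 0.889. With the 12 pairs as a block, Ermn, Hapln2 and Omg were called at 5 W beside Olig1, Cldn11 and Opalin.

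Aspa, aspartoacylase, which frees acetate for lipid synthesis (chr11:73119051-73119110, minus strand), lay the other way in 11 of 12 pairs and was slightly lower in AN. Its differences, youngest age first, were -0.42, -0.34, -0.31 and -0.06, all under the fold threshold. With the pairs as a block their adjusted p values at P0, 1 W and 3 W were 0.0398, 0.0464 and 0.0437. The further Aspa probe, above background on all 24 arrays, gave -0.27, -0.22, 0.52 and 0.74, none called, so that its direction turned at 3 W.

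**Figure D2:**
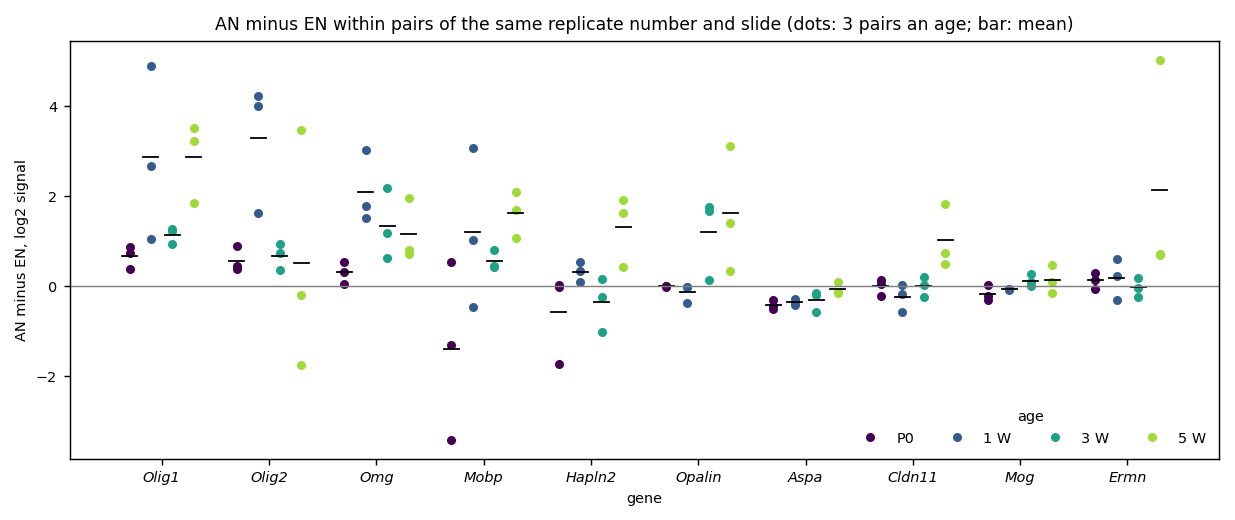
AN minus EN (log2, y axis) within each pair of arrays that share a replicate number and a slide, for each of the 10 genes (x axis) and each age (colour), 3 pairs an age, with a black bar at their mean. Olig1 and Omg lie above 0 in all 12 pairs and Aspa in 1, and the highest point, 5.04 for Ermn at 5 W, is the pair of replicate 3.

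Whether the difference between fibres had itself changed since P0 was tested by an interaction term. No gene was called at 1 W, 3 W or 5 W, where 0.0632%, 0.530% and 0.948% of all tested probes were. Unadjusted, limma gave 4, 0 and 5 of the 10 genes past both thresholds, beside 1374, 1493 and 1681 of the 36398 tested probes. For Olig1 the change was 2.21 ± 0.77 at 1 W and 2.21 ± 0.77 at 5 W, with adjusted p values of 0.391 and 0.223. Mobp gave 3.01 ± 1.06 at 5 W, with an adjusted p of 0.23. A call at 1 W and none at P0 is therefore not shown to be a change between these ages.

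The course with age came next, within each fibre. In EN, 1 gene was called at 1 W against P0 (Mobp), 5 at 3 W (Mobp, Hapln2, Opalin and Aspa higher, Cldn11 lower) and 6 at 5 W (Mobp, Hapln2 and Aspa higher, Cldn11, Olig1 and Ermn lower). In AN the counts were 1 (Mobp), 6 and 6, the latter both Mobp, Hapln2, Opalin, Aspa and Omg higher and Cldn11 lower. Of all tested probes, 12%, 30.6% and 30.0% were called at these ages for EN, and 8.59%, 27.9% and 27.9% for AN. The AN and EN courses were each set against their own P0 arrays. From 1 W to 3 W, Hapln2 and Opalin were called higher in both fibres, beside 11.7% of all tested probes in EN and 12.6% in AN. From 3 W to 5 W, Cldn11 was called lower in EN, beside 1.13% of probes. No gene was called over that step in AN, where 1.70% of probes were. Limma gave 2 of the 10 genes there without adjustment, beside 1437 of the 36398 tested probes.

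Mobp, a basic protein of the major dense line of central myelin, had the widest range of group means among the 10 genes, 8.35. In AN it read 4.07, 2.49 and 4.90 at P0, none above background, then 11.97, 10.79 and 10.76 at 1 W, 12.17, 11.99 and 12.37 at 3 W and 12.01, 12.44 and 11.32 at 5 W. No P0 array came near the later ones. The rise from P0 was at least 89.1-fold at 1 W, at least 178-fold at 3 W and at least 150-fold at 5 W, with adjusted p values of 1.54e-06, 5.03e-08 and 4.96e-08 by limma.

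In EN, Mobp read 7.48, 3.79 and 4.36 at P0, 8.90, 11.24 and 9.72 at 1 W, 11.72, 11.57 and 11.56 at 3 W and 10.31, 10.34 and 10.25 at 5 W. Replicate 1 at P0 was the single EN array of that age above background. The rise was 4.75 at 1 W, 6.41 at 3 W and 5.09 at 5 W (each ± 0.75, SE), and without replicate 1 at P0 it was 5.88, 7.54 and 6.22. On the slide that held replicate 1 of both ages, EN rose by 1.42 from P0 to 1 W, and on slide 3 by 5.65. The AN values on the same slides were 7.90 and 7.06. The dimmer Mobp probe also rose, by 1.51, 3.60 and 3.16 in EN and by 2.84, 4.39 and 4.75 in AN, all called. Between the fibres Mobp differed by -1.39, 1.22, 0.56 and 1.62 over the 4 ages, with none called.

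Hapln2, a link protein of the matrix at central nodes of Ranvier (chr3:87826236-87826295, minus strand), was not above background on any array at P0 or 1 W. It read 5.68, 5.63 and 6.10 in AN and 5.91, 6.65 and 5.93 in EN at 3 W, and 7.04, 7.49 and 6.44 in AN and 5.42, 5.56 and 6.01 in EN at 5 W. All of these but 1 EN array were above background. Against P0 the AN signal was at least 2.16-fold higher at 3 W and at least 4.90-fold higher at 5 W. The EN signal was at least 2.12-fold and at least 1.5-fold higher, and the 4 adjusted p values by limma lay between 7.24e-08 and 7.20e-05. Opalin was above background on all 3 AN arrays at 3 W alone (4.88, 5.99 and 5.53), at least 1.71-fold over P0 (adjusted p = 2.54e-05), and on 1 of 3 EN arrays at 3 W (4.73, 4.32 and 3.76). With normexp background correction in place of the scanner's subtraction, the called differences of Hapln2 and Opalin fell under the fold threshold except Hapln2 in AN at 5 W against P0 (1.43).

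Sequences upstream of Mobp, Hapln2 and Opalin, the genes that came above background during development, are shown for reference, 250 bases before to 50 bases after the RefSeq transcript start (GRCm38.p6). Capitals mark the core ACAANG of SOX factors on either strand, a family that includes the oligodendrocyte regulator Sox10. Of 32851 promoters of this length, 41.2% held at least 1 match. The E-box CANNTG (in 72.3% of promoters) and the MYRF core CTGGNAC (in 19.3%) were searched in the same way, on both strands. Mobp had neither, Opalin had 3 E-boxes and 1 MYRF core, and Hapln2 had 1 of each. For the SOX core, Mobp had 6 matches, all between 243 and 120 bases before the start, and 5 of the 32851 promoters (0.0152%) held 6 or more. Opalin had 2, and 11.1% of promoters held 2 or more. Hapln2 had 1. Of the other genes in the table, Ermn had 2, Mog and Olig2 1 each, and Cldn11 and Aspa none. Olig1 and Omg were not matched in it, so 8 of 10 genes were read. A match is a run of letters and not a measured site.
Mobp, chr9:120149492-120149791, plus strand: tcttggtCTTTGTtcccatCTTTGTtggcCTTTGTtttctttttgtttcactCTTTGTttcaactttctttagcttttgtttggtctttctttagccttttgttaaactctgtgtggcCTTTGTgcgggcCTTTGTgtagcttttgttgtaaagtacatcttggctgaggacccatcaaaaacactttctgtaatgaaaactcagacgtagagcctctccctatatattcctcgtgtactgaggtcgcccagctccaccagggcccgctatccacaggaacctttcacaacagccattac
Opalin, chr19:41077064-41077363, minus strand: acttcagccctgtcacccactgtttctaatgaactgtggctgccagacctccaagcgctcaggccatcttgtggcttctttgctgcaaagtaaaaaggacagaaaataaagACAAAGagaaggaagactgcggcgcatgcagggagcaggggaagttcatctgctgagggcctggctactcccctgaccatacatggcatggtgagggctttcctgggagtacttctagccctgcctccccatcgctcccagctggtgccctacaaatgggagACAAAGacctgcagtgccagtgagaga
Hapln2, chr3:88027462-88027761, minus strand: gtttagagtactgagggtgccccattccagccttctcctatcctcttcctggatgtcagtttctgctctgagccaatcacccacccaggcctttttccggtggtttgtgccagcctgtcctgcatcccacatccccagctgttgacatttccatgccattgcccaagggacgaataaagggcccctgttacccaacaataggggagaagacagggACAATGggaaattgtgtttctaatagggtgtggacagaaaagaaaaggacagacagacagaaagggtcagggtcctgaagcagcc

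Aspa rose in both fibres. In EN it read 11.81, 12.01 and 11.80 at P0 and 13.36, 13.26 and 12.95 at 5 W, and in AN 11.50, 11.50 and 11.35 at P0 and 13.20, 13.37 and 12.83 at 5 W. The ages did not overlap in either fibre. The rise at 5 W was 1.32 ± 0.17 (2.5-fold, adjusted p = 2.67e-06) in EN and 1.68 ± 0.17 (3.20-fold, adjusted p = 1.37e-07) in AN by limma. It was already 0.88 and 0.96 at 1 W, under the fold threshold. The further Aspa probe rose by 1.49 in EN and 2.49 in AN at 5 W, both called. Omg rose in AN, by 1.45 at 3 W and 1.26 at 5 W (adjusted p = 0.0186 and 0.0388), and was at 0.43 and 0.41 in EN, which was not called. Without AN replicate 3 at 3 W, the array high in sensory neuron genes, the first of these was 0.94 with an adjusted p of 0.117, and without AN replicate 3 at P0 it was 1.30 with 0.0663. The second was lost without AN replicate 2 or 3 at P0 or AN replicate 1 or 2 at 5 W, at adjusted p values from 0.0874 to 0.205.

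Cldn11 fell in both fibres. From 13.58, 13.60 and 13.66 at P0, the EN arrays read 13.22, 13.34 and 13.70 at 1 W and 12.47, 12.56 and 12.48 at 3 W, before the 5 W values given above. The AN arrays read 13.36, 13.65 and 13.81 at P0, 13.24, 13.16 and 13.13 at 1 W and 12.49, 12.32 and 12.68 at 3 W. At 5 W the difference from P0 was -2.38 ± 0.30 in EN (adjusted p = 1.99e-06) and -1.35 ± 0.30 in AN (adjusted p = 0.000826). At 3 W it was -1.11 in both fibres, and with the slide as a fixed block this was -0.06 in both (adjusted p = 0.891 in EN and 0.895 in AN). Within slide 3, which held P0 and 5 W arrays, the values were -1.78 in EN and -1.15 in AN. Cldn11 is also known from the arachnoid barrier of the meninges. With the same block, Mobp, Hapln2, Opalin and Aspa were still called against P0 at 3 W in both fibres, and Omg in AN.

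Mog, a minor glycoprotein of the outermost myelin lamella, gave different courses by its probes. The brighter probe, within 1 stretch of the genome, was above background on all 24 arrays, between 7.58 and 9.16, and was called in no comparison. The probe across the junction rose. It read 4.59, 4.76 and 4.84 in AN at P0, of which 1 was above background, and 7.61, 7.69 and 8.07 at 3 W. In EN it read 4.76, 5.36 and 4.38 at P0 and 7.36, 7.41 and 6.98 at 3 W. The difference from P0 was 3.06 in AN and 2.42 in EN at 3 W, with adjusted p values of 2.26e-06 and 2.91e-05 by limma.

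By 5 W the junction probe of Mog read 7.35, 8.59 and 6.95 in AN and 5.77, 6.39 and 5.96 in EN. These groups did not overlap, and AN was 1.59 ± 0.37 higher, or 3.01-fold (adjusted p = 0.0138). The brighter probe differed by 0.14 ± 0.27 at that age. The remaining Mog probe was above background on 1 of 24 arrays and was not tested. Mog is counted among the genes not called because the rule takes the brighter probe.

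**Figure D3:**
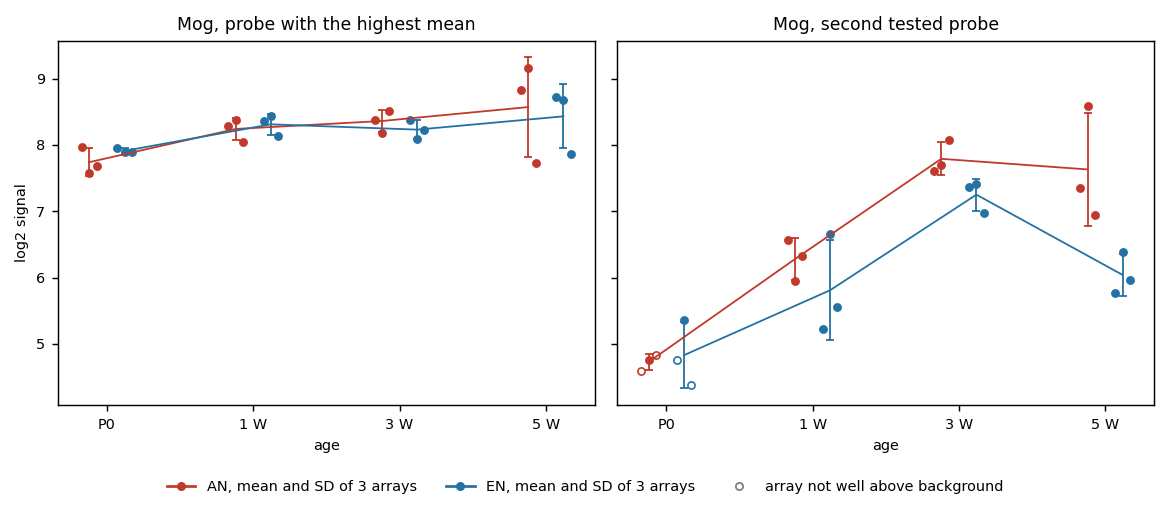
Log2 signal (y axis) of the Mog probes on every array by age (x axis), AN and EN in separate colours, with means and SD of 3 arrays. The left panel is the probe within 1 stretch of the genome and the right panel the probe across the splice junction. The probe within 1 stretch of the genome stays between 7.58 and 9.16, and the probe across the splice junction rises from between 4.38 and 5.36 at P0 to between 6.98 and 8.07 at 3 W.

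Ermn, a cytoskeletal protein of late myelin formation, had a signal unlike that of the other genes. Its probe stood at the 98.1 percentile of mean signal over the 24 arrays among all gene probes, with group means between 13.08 and 15.49. Of the 56605 gene probes, 31 hold at least 4 GAA units in a row, all 31 were tested, and their median percentile was 97.9. In EN at 5 W the arrays read 14.23, 15.14 and 9.88, so replicate 3 stood apart from both others. The difference from P0 was -2.28 (adjusted p = 0.0259 by limma) with that array and -0.67 (adjusted p = 0.171) without it. The call was also lost without EN replicate 1 or 2 at P0 (adjusted p = 0.0586 and 0.062) and with the slide as a fixed block (-0.89, adjusted p = 0.246).

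The Trpm1 probe with its own GAA run read 2.61 on the same array and between 10.20 and 12.44 on the other 23. After group means were removed, the Ermn and Trpm1 probes correlated at r = 0.989 over the 24 arrays. Among the other 30 probes with the run, the median deviation r with Ermn was 0.443, beside -0.069 in probes without it. Trpm1 was the single one of these 30 with an r above 0.8 (3.33%), a value that 386 probes without the run also passed (1.06%). EN replicate 3 at 5 W was the lowest array for 4 of the 30 (13.3%) and for 7.39% of tested probes without the run. Kdm5a and Mdc1, the genes closest to Ermn after Trpm1, lack the run, and their means in EN at 5 W were 9.06 and 7.31, beside at least 11.03 and 9.59 in every other group. Ermn and Cldn11 deviated together at r = 0.888 (Spearman's rho 0.613), and at 0.593 without EN replicates 2 and 3 at 5 W. The part of the repeat in the Ermn signal was not tested.

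Levels were ordered over the 8 groups for each gene, with neighbours in the order separated where their arrays did not overlap. Mobp ran from AN at 3 W (12.17) down to AN at P0 (3.82), with gaps between AN at 1 W and EN at 5 W and between EN at 1 W and EN at P0. Olig1 had all 4 AN groups above all 4 EN groups, from 9.82 (AN at 1 W) to 6.63 (EN at 5 W), with a gap between AN at P0 and EN at 3 W. Cldn11 followed age, from 13.61 at P0 to 11.24 in EN at 5 W. For Ermn, all 7 neighbouring groups overlapped.

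Other genes of the lineage were read from lists. Of 19 further genes enriched in oligodendrocytes, 0 were called at P0 between the fibres by limma (0 also without adjustment), 4 were higher and 1 lower in AN at 1 W, 3 were higher at 3 W and 10 were higher at 5 W. Gpr17, a receptor of cells committed to the lineage, read 10.62, 11.11 and 9.17 in AN at 5 W and 6.82, 6.59 and 6.04 in EN. These arrays did not overlap, with a difference of 3.82 ± 0.51, or 14.1-fold (adjusted p = 0.000139 by limma). Klk6, a secreted protease, was 2.62 higher, Gpr37, a receptor of maturing oligodendrocytes, 2.22 higher (adjusted p = 3.79e-08), and Prr18 2.22 higher in AN at 5 W. Nkx2-2, a transcription factor of precursors, was at least 3.73-fold higher in AN at 1 W. The gene called lower in AN at 1 W was Il33, with means of 9.24 in AN and 10.33 in EN. Its mean was lower in AN at the other ages too, without a call. Adamts4 also had the lower mean in AN at every age (11.50 beside 12.26 in EN at 5 W) and was not called.

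Over the ages the same 19 genes rose more often than they fell. Against P0, 5 were higher and 2 lower in EN at 1 W, 10 and 1 at 3 W and 7 and 4 at 5 W. In AN, 8, 11 and 12 were higher at these ages, and 1 was lower at 5 W. Called probes of the whole array were also more often higher than lower against P0. Of the 36398 tested probes, 2302, 5877 and 5640 were higher in EN at these ages and 2058, 5253 and 5279 were lower. For AN, 1811, 5491 and 5524 were higher than at P0 and 1316, 4655 and 4622 were lower. Of 7 tested genes of oligodendrocyte precursors, 4 were higher in AN at 1 W, 4 at 3 W and 3 at 5 W, and 2 genes (Gpr17 and Nkx2-2) stand in both lists. Pdgfra and Cspg4, receptors often used as precursor markers, were not among the genes higher in AN. Pdgfra had differences of -0.83, -0.67 and -0.78 at these ages, with adjusted p values of 0.00574, 0.0159 and 0.00479 by limma but folds under the threshold. Cspg4 had -0.63, -0.61 and 0.00.

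Myelin genes that oligodendrocytes share with Schwann cells lay the other way at P0. Of 10 such genes, 4 were lower in AN at P0 and none was called at 1 W, 3 W or 5 W by limma, with or without adjustment. Mbp, the main basic protein of both kinds of myelin, read 12.95, 12.66 and 13.42 in AN and 14.39, 14.04 and 14.34 in EN. The difference was -1.25 ± 0.27 (adjusted p = 0.0404). Ugt8a, which makes galactosylceramide, gave -1.28, the gap junction gene Gjb1 -1.24 and the fatty acid hydroxylase Fa2h -1.02. Against P0, 8 of the 10 rose in AN at 1 W and 6 in EN.

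**Figure D4:**
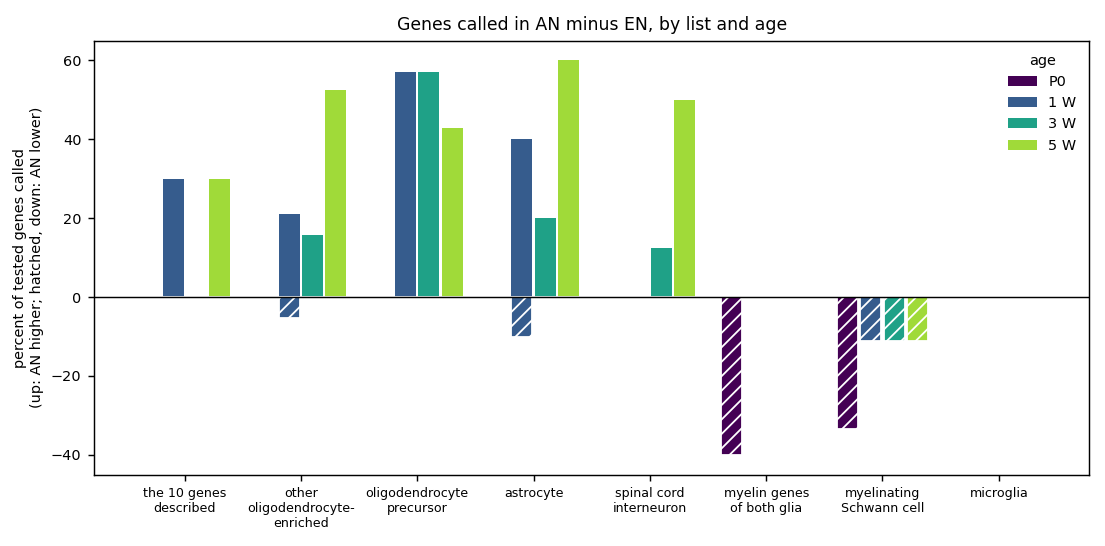
Percent of the tested genes of each list (y axis) called higher in AN (bars upward) or lower in AN (hatched bars downward), by list (x axis) and age (colour). The 10 genes have bars upward at 1 W and 5 W. Lists of other oligodendrocyte, precursor and astrocyte genes have bars upward from 1 W on, and the interneuron list from 3 W on. The other oligodendrocyte and the astrocyte list also have a bar downward at 1 W. Shared myelin genes (at P0) and Schwann cell genes (at all 4 ages) have bars downward only, and the microglial list has none.

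Some markers of other cells also differed between the fibres. Of 10 astrocyte genes, 4 were higher and 1 lower in AN at 1 W, 2 were higher at 3 W and 6 at 5 W. Their summed signal at 1 W ran from 15200 to 18500 in AN and from 16400 to 20400 in EN. At 3 W it ran from 26800 to 27500 in AN and from 26400 to 28000 in EN. The sums at 5 W ran from 31000 to 44700 (median 31000) in AN and from 24400 to 33400 (median 30400) in EN. Slc6a11 was above background on no EN array at 1 W, 3 W or 5 W. Of 8 genes of spinal cord interneurons, 1 was higher in AN at 3 W and 4 at 5 W. Their summed signal at 5 W ran from 1500 to 6640 in AN and from 649 to 1030 in EN, where Gad2, Slc6a5 and Lhx5 were not above background on any array.

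Sensory neuron genes were higher in AN most often at 1 W, 8 of 9 tested, with summed signals from 89200 to 103000 in AN and from 13600 to 38000 in EN. Of 5 tested motor neuron genes, 1 was higher in AN at each of these later ages (Isl1 at 1 W, Chrna4 at 3 W and at 5 W) and none was lower. Isl1 stands in the sensory neuron list too. Of 9 Schwann cell genes, 3 were lower in AN at P0 (Pmp2, Ncmap and Drp2), and Pmp2 alone was lower at each later age. The median differences of that list were -0.60, -0.15, -0.20 and 0.01, youngest age first. None of 8 microglial and none of 6 meningeal genes was called by limma between the fibres at any age, and without adjustment these lists gave 0 and 1 calls over the 4 ages. Markers were also called between ages, where 30.0% of all tested probes were called in EN at 5 W against P0 and 27.9% in AN. Counts near these shares are not particular to a list. In EN at 5 W against P0, 6 of 8 interneuron genes, 7 of 9 sensory neuron genes, 4 of 5 motor neuron genes and 4 of 10 astrocyte genes were lower, 1 astrocyte gene was higher, and 4 of 9 Schwann cell genes were higher. In AN at 5 W, 2 interneuron, 5 sensory neuron, 3 motor neuron and 1 astrocyte genes were lower than at P0, and 4 astrocyte, 5 Schwann cell, 1 sensory neuron and 1 motor neuron genes were higher. Of the 6 meningeal genes, 2 were lower and 1 was higher in EN at 5 W than at P0. For AN, 3 of them were lower and 1 was higher. The part of these cells in the differences of the oligodendrocyte genes, between fibres or ages, was not tested.

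Array by array, Olig1 moved with the astrocyte list. After the mean of each group was removed, its deviations correlated with the mean of the astrocyte list at r = 0.923 over the 24 arrays (Spearman's rho 0.855) and at 0.858 without EN replicate 1 at 1 W and AN replicate 2 at 5 W. With the interneuron list r was 0.614 and with the Schwann cell list -0.171. Lists of its own lineage gave 0.766 (further oligodendrocyte-enriched genes) and 0.765 (precursors) with Olig1. Those lists correlated with the astrocyte list at 0.761 and 0.789. Olig2 gave 0.216 and Omg 0.481 with the astrocyte list (rho 0.211 and 0.257), and 0.043 and 0.264 without the same arrays. Mobp gave 0.521 with it and 0.646 with the shared myelin list, and 0.474 and 0.603 with the 2 outermost arrays of each list left out. These are descriptions over arrays that share slides and groups.

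**Figure D5:**
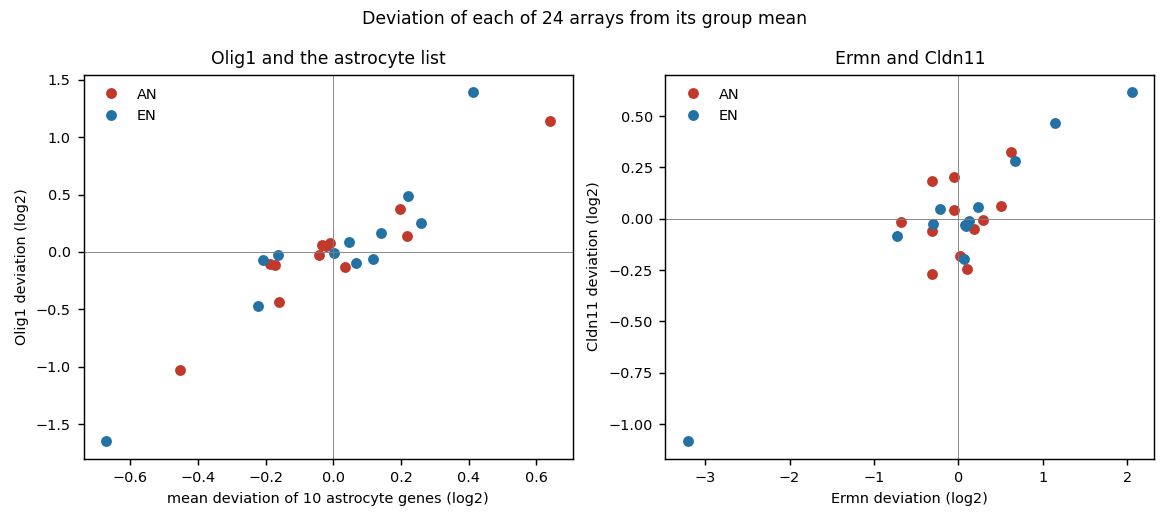
Deviation of each array from its group mean (log2), for Olig1 against the astrocyte list and for Cldn11 against Ermn, 24 arrays, AN and EN in separate colours. The points of Olig1 follow those of the astrocyte list (r = 0.923), and EN replicate 3 at 5 W lies far from the rest in the Ermn panel.

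Likeness over the 24 arrays was also measured against 16899 genes, 1 probe each, as Pearson's r of log2 signals. Olig1 was closest to Mlc1 (r = 0.9284), an astrocyte membrane protein, then Dbx2 and Kcnj16. Olig2 was closest to Atp1b1, Aqp4, the astrocyte water channel, and Nkx2-2. Omg was closest to B3galt5, Ndnf and Slc39a12, and Mobp to Magix (r = 0.9629), Spint1 and Cd9. Hapln2 was closest to Nme5, Glul, which makes glutamine, and Sfrp5, and Cldn11 to Ckap2l, Psrc1 and Igf2bp2, whose group means also fell with age. Aspa was closest to Gm36356, Desi1 and Tmbim1, Opalin to Ip6k1, Abcc5 and Mbd4, Mog by its brighter probe to Zscan20, Amhr2 and Zscan26, and Ermn to Trpm1, Kdm5a and Mdc1.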

How the data were processed

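Total RNA was hybridized to 24 1-colour Agilent mouse arrays. The authors deposited the scanner's intensity of each spot after background subtraction (Agilent Feature Extraction 10.7.1.1, per the labels), and log2 values normalized by quantiles in 1 table, used for choosing the probe of a gene and as an alternative. Probe positions are on mm9, per the file headers. Outlier spots (47 to 179 an array) were left out, spots of a probe were averaged, and log2 values were quantile normalized over the arrays. Array medians lay between 45.4 and 191 and 55.1% to 71.7% of gene spots were above background. The number of arrays limits the precision. A probe entered the test where some group had it above background on each of its 3 arrays (36398 probes). The fit was made with limma 3.58.1 in R 4.3.3, 1 mean a group and moderated variances. The study's methods name limma, p below 0.05 and fold above 2, without saying whether p was adjusted.

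The bound for a dim group used, on each array, the higher of the lowest signal above background (3.71 to 5.87, log2) and the probe's own signal. Deviations of AN and EN arrays with the same replicate number correlated at 0.107 to 0.665 (different numbers, 0.118 at most), and those arrays shared a slide, so numbers were taken as pairs. 4 slides were scanned in 3 batches. Alternatives were the authors' table, other scalings, background correction, filters, probe averaging, blocks for replicate, slide and scan, array weights, each age alone, unadjusted p and leaving out each array. Scripts were tested on simulated data.

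The 10 genes and all gene lists were chosen with earlier results of these data known. Named genes are these 10, the 3 genes of closest pattern to each, and, of the 2 lists of further oligodendrocyte and shared myelin genes, those with the largest called differences between fibres. Il33 and Adamts4 are named besides, as listed genes with lower means in AN. Probe sequences are from the scanner files and promoters from RefSeq (GRCm38.p6).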

Additional observations from a re-analysis of the deposited data

Results flagged for a closer look

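In 2 genes the AN minus EN difference lay one way in all 3 pairs of an age and the other way in all 3 pairs of another. Mog, by its brighter probe, was lower in AN in every pair at 1 W (nearest to zero -0.06) and higher in every pair at 3 W (nearest to zero 0.01). Opalin was lower in AN in every pair at 1 W (nearest to zero -0.01) and higher in every pair at 3 W (nearest to zero 0.15) and at 5 W (nearest to zero 0.33). Opalin was not above background on any array at 1 W. These differences between ages were not tested in this form.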

How the results depend on the processing

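Of 36 called differences of the 10 genes, 641 values under alternatives gave 566 on the same side of the threshold, 75 under it and 0 of opposite sign. Between the fibres, the count of genes called at 3 W (main value 0) was 1 with the slide or scan as a fixed block, the slide as a random block, the replicate block of 12 pairs, array weights, or the age alone, and 3 with unadjusted p. At 5 W (3) it was 1 with 75th percentile scaling, no filter or array weights, 5 with slide or scan as a fixed or slide as a random block, 6 with the replicate block of pairs, 0 with the age alone and 7 with unadjusted p. Leaving out an array gave 1 to 3 at 1 W, the lowest without AN replicate 1, AN replicate 2 or EN replicate 1. At 5 W it gave 1 to 5, with 1 without AN replicate 1, AN replicate 2 or EN replicate 3 and 5 without AN replicate 3. For EN at 1 W against P0 (1) the count was 0 with probes above background on all 24 arrays, 2 with the mean over probes or with slide or scan as a block, and 3 with unadjusted p. It was 1 to 3 leaving out an array (3 without EN replicate 2 at 1 W). EN at 3 W against P0 (5) gave 3 with normexp and 2 with the 24-array filter. EN at 3 W against 1 W (2) gave 1 with 75th percentile scaling or normexp, 0 with the 24-array filter, 5 with the slide block, and 4 with the scan block, weights or unadjusted p. Leaving out an array gave 1 to 4 there (4 without EN replicate 2 at 1 W, 1 without EN replicate 3 at 1 W or replicates 1 or 2 at 3 W). EN at 5 W against 3 W (1) gave 2 with the replicate block of 3 levels or weights, 3 with slide or scan blocks, 4 with unadjusted p, and 0 to 1 leaving out an array (0 without EN replicate 3 at 5 W or any EN array at 3 W). In AN at 1 W against P0 (1) the count was 2 with 75th percentile scaling, the scan block, weights or unadjusted p, 3 with the mean over probes and 0 with the 24-array filter. That filter gave 3 at 3 W and 3 at 5 W against P0 (6 each). AN at 3 W against 1 W (2) gave 0 with normexp or the 24-array filter and 5 with slide or scan as a fixed block. AN at 5 W against 3 W (0) gave 1 with slide, scan or weights, 2 with unadjusted p, and 0 to 1 leaving out an array (1 without AN replicate 2 or 3 at 5 W). The change in the fibre difference since P0 (0) gave 4 at 1 W and 5 at 5 W with unadjusted p, 1 at 5 W with slide or scan as a block, and 0 to 1 leaving out an array (1 without AN replicate 3 at 5 W). Mobp, Opalin, Olig2 and Hapln2 have no value under the 24-array filter, which lowers those counts by construction. For the rest the cause was not tested. Apart from unadjusted p, the share of all tested probes called under an alternative is not given here. Dim probes limit Opalin, Olig2 and Hapln2.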
